A study of Mus musculus with 30 samples.

Results

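The 7 genes described here, Snhg1, Snhg3, Snhg4, Snhg5, Snhg12, Snhg15 and Gas5, are noncoding genes that carry small nucleolar RNAs (snoRNAs) in their introns. They were chosen by symbol, with their measured changes after intestinal manipulation in view, from the 28586 genes that the tables list (26179 in the RiboTag tables and 24601 in the ME table). Their levels and changes after manipulation are therefore a description, and no p-value is given for them.

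The study asked how enteric glia, the glial cells of the gut's own nervous system, respond to abdominal surgery that ends in post-operative ileus, a transient arrest of bowel movement. Intestinal manipulation (IM) is the surgical handling of the small bowel that sets off this inflammation of the muscularis externa (ME), the muscle layer of the bowel wall. RNA was sequenced from that layer of naïve mice and of mice killed at 3 h (IM3h), at 24 h (IM24h) or at 72 h (IM72h) from the operation. In the RiboTag fraction, ribosomes that carried an HA-tagged Rpl22 were pulled down with their RNA from mice in which tamoxifen switched the tag on through a Cre recombinase driven by the glial gene Sox10 (line 388Wdr, Sox10-iCreERT2), so any tagged cell type that uses the Sox10 promoter contributes. Operated mice were males aged 10 to 12 weeks. The tables hold 3 naïve (of 4 labelled), 4 IM3h, 4 IM24h and 4 IM72h RiboTag libraries. The ME fraction is total RNA of the tissue lysate, with 3 naïve, 3 IM3h, 4 IM24h and 4 IM72h libraries. For ME, the labels give a Gfap-Cre line (B6.Cg-Tg73.12Mvs/J) crossed to the tagged Rpl22 allele for naïve and IM3h and a Sox10-driven Cre for IM24h and IM72h, so in that fraction the later times and the mouse line cannot be told apart. All mice carried the tagged Rpl22 allele (Rpl22tm1.1Psam), and all 3 comparisons within a fraction share its 3 naïve libraries. The study describes its sequencing replicates as mice, and the labels do not tie single libraries to mice.

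A snoRNA host gene is transcribed and spliced like a messenger RNA, and its snoRNAs are trimmed out of the removed introns. Box C/D snoRNAs guide ribose methylation and box H/ACA snoRNAs guide pseudouridylation of ribosomal RNA in the nucleolus, and a few, such as U17, are needed to cut the ribosomal RNA precursor. The spliced host RNA often has no long reading frame, is known to be removed by nonsense-mediated decay when it meets ribosomes, and in many hosts starts with a run of pyrimidines (the 5′TOP motif) that ribosomal protein genes share. Gas5 was named for its accumulation in growth-arrested cells.

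In the mm10 annotation the 7 genes held 30 entries of the snoRNA type, all 30 inside introns. Gas5 held 10, Snhg1 8, Snhg12 5, Snhg3, Snhg4 and Snhg5 2 each, and Snhg15 1. Snora16a in Snhg12 and Snord80 in Gas5 each have overlapping entries under the same name, so there are 28 distinct names. Mir1949 in Snhg4 and Mir5117 in Gas5 are typed as snoRNAs but named as microRNAs. Snhg1 lies on chr19:8723475-8726443 (+) and hosts Snord22, known as U22, among other box C/D snoRNAs. Gas5 lies on chr1:161034422-161038539 (+) and overlaps the protein-coding Zbtb37 on the opposite strand. Snhg12 (chr4:132308623-132311024, +) and Snhg3 (chr4:132348014-132353686, -) lie on the same chromosome. Snhg3 overlaps the protein-coding Rcc1 on its own strand and Gm17300 on the other, so its counts are uncertain. Snhg5 (chr9:88521050-88522929, -) hosts Snord50a and Snord50b, and Snhg15 (chr11:6525591-6528760, -) hosts Snora9.

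Snora73b, Gm24452 and Snora61 are printed here, from RefSeq on GRCm38.p6, because they carried the most counts of the hosted set, and Gm23212 because it carried the most of those in Gas5. Capitals mark box C (TGATGA) and box D (CTGA) in box C/D snoRNAs and the ACA box near the 3′ end in box H/ACA snoRNAs. The first is the H/ACA snoRNA of a Snhg3 intron (U17b, chr4:132352322-132352526, -), the others come from introns of Snhg12, Snhg1 and Gas5.
Snora73b: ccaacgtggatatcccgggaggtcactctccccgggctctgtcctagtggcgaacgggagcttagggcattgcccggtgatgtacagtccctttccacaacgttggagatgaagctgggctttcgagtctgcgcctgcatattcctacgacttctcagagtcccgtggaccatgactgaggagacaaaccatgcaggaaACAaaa
Snora61: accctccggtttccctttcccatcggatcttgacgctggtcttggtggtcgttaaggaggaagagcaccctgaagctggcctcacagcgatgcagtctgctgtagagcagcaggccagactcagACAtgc
Gm24452: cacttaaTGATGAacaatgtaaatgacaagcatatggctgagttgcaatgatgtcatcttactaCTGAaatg
Gm23212: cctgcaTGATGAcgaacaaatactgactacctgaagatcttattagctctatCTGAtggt

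Start sites are printed because several members moved together, and their first bases can be read for the pyrimidine run. Of the 7 RefSeq start sites of the members (2 of Gas5, none matched for Snhg4), 4 (57.1%) held a run of at least 5 pyrimidines that began with C within 10 bases of the start, against 14 of 31 (45.2%) start sites of other listed host genes and 10093 of 32851 (30.7%) of all start sites. The windows span 30 bases before and after the start, on GRCm38.p6, with the run in capitals.
Snhg12, chr4:132308648-132308707 (+): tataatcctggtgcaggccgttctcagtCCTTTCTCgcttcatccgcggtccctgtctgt
Gas5, second start, chr1:161035136-161035195 (+): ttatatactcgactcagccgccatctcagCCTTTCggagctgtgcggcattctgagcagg
The cAMP response element TGACGTCA, the palindromic site bound by the CREB and ATF factors, was searched from 250 bases before to 50 bases after each start, and was present at 2 of the 7 member start sites (28.6%) against 588 of 32851 (1.79%) of all start sites. The matches lie at Snhg15, where it begins 88 bases before the start, and at the second Gas5 start, where it begins 46 bases before the start. The palindromic E-box CACGTG was present at 1 of 7 (14.3%), Snhg15, against 2349 (7.15%) of all. A match describes these letters only.
Snhg15, chr11:6528815-6528874 (-): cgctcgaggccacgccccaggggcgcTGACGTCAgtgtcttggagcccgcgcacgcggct
Gas5, second start, chr1:161035094-161035153 (+): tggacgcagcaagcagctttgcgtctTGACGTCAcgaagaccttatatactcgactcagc

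Libraries held 3010338 to 7899551 counts in RiboTag and 6603125 to 12866014 in ME. A single gene, AY036118, which overlaps ribosomal RNA sequence, took 2.02% to 14.0% of the counts of naïve and IM3h RiboTag libraries, 22.2% to 59.2% at IM24h and 58.0% to 80.1% at IM72h, so the late RiboTag libraries had few counts left for other genes. In ME its share was 16.1% to 33.5% in naïve, 24.1% to 25.1% at IM3h, 1.33% to 6.50% at IM24h and 2.34% to 3.69% at IM72h. Sox10, which defines the tagged cells, stood at 486 to 1049 CPM (TMM-scaled counts relative to library size) in naïve RiboTag libraries and at 0 to 11.7 CPM at IM72h, where Sox2 was at 0, while the summed level of 7 glial markers ranged from 1581 to 1925 CPM in naïve and from 142 to 1435 CPM at IM72h. In ME, the summed level of 8 leukocyte markers was 107 to 139 CPM in naïve, 154 to 169 CPM at IM3h, 285 to 841 CPM at IM24h and 383 to 468 CPM at IM72h. The summed level of 6 markers of proliferating cells in ME was 24.1 to 38.9 CPM in naïve and 276 to 338 CPM at IM72h. The summed level of 6 smooth muscle markers in ME was 21962 to 22852 CPM in naïve and 3160 to 10621 CPM at IM24h, where 5 of the 6 were called lower. In naïve RiboTag libraries it was 4929 to 7545 CPM, above the glial sum, and at IM3h 3 of the 6 were called lower in RiboTag. Summed markers of interstitial cells of Cajal and fibroblasts went from 1592 to 1747 CPM in naïve ME libraries to 840 to 907 CPM at IM3h, with 5 of 5 called lower, and 3 of 5 were called lower in RiboTag. The part of these shifts in the results below was not tested, and in RNA of a whole tissue fewer cells of a type and less RNA per cell cannot be told apart.

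At IM3h most of the host genes rose in both fractions. In the RiboTag fraction 5 of the 7 genes (Snhg1, Snhg4, Snhg5, Snhg12 and Gas5) were called higher and 0 lower in edgeR's quasi-likelihood test at a Benjamini-Hochberg adjusted p under 0.05, where 8.86% of the 16053 genes tested were called higher and 4.44% lower. Their median log2 fold change was 2.03, against -0.04 over all genes tested, and it was 1.83 with scaling by library total and 1.62 with scaling by 3 reference genes. The count was 2 with reference genes, 2 without naïve library 3 and 3 without naïve library 1. In ME 7 of 7 were called higher and 0 lower, with a median log2 fold change of 2.23 against 0.00 over all genes, where 19.3% of 15333 genes were called higher and 13.4% lower. All libraries stood above every naïve library for 6 of the 7 genes in RiboTag and 7 of 7 in ME, as for 14.5% and 22.7% of all genes tested. Since these comparisons helped to choose the genes, nothing is read from the counts beyond this.

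At the later times fewer of the genes were called. In RiboTag at IM24h 0 of the 6 genes tested were called (1 had an unadjusted p under 0.05, and DESeq2 called 1 of 7), where 0.366% of 15304 genes were called higher and 0.131% lower. At IM72h 0 of 6 were called higher and 1 lower, where 1.05% of 13572 genes were called higher and 15.1% lower, and the 1 call (Snhg12) was absent with DESeq2, with no filter and with ribosomal RNA genes left out. The RiboTag median log2 fold change was 0.63 at IM24h and 0.34 at IM72h, but turned to -0.20 and -1.41 with scaling by library total and to -0.79 and -1.35 with the reference genes. In ME 3 of 7 were called higher at IM24h and 5 of 7 at IM72h, with 0 lower at both times, where 15.6% and 29.3% of genes were called higher and 13.4% and 28.3% lower. The ME medians were 1.08 and 0.93, and stayed above 0 under both other scalings (0.72 to 1.70 at IM24h and 0.31 to 1.5 at IM72h). Every library stood above naïve for 5 of 7 genes in ME at IM24h and at IM72h, as for 20.6% and 33.7% of all genes tested. In RiboTag 0 of 6 genes stood wholly apart from naïve at IM24h, against 6.37% of all genes above and 15.3% below. At IM72h 2 of 6 lay wholly below it, as did 28.4% of all genes. No test compared the fractions with each other.

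**Figure D1:**
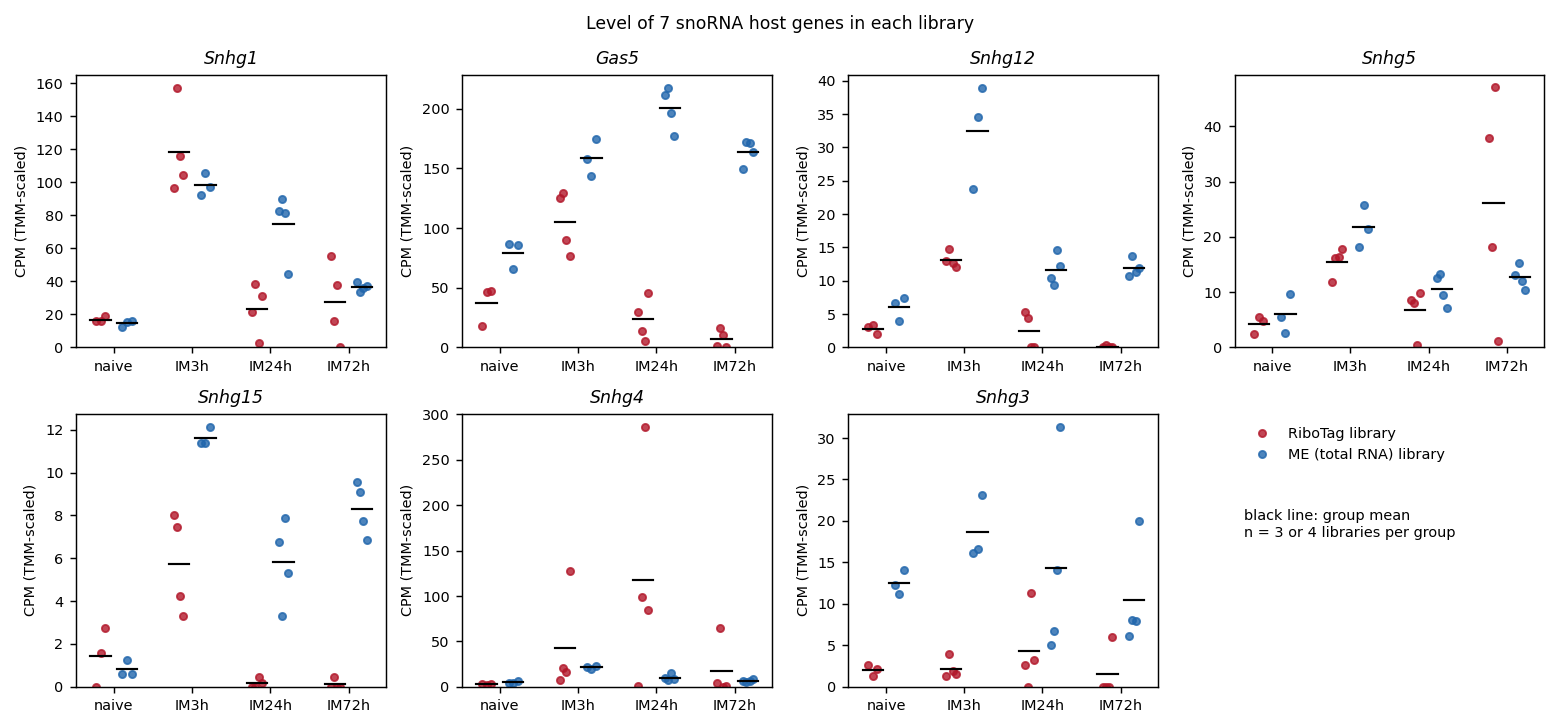
Level of each host gene in every library, in CPM after TMM scaling within each fraction, by group (red RiboTag, blue ME, black line the group mean, 3 or 4 libraries per group). In both fractions Snhg1 and Gas5 stood above every naïve library at IM3h, and at IM72h the RiboTag libraries of Snhg12 stood between 0 and 0.434 CPM.

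Snhg1, the U22 host, rose at IM3h in both fractions. In RiboTag it stood at 15.9, 15.9 and 18.9 CPM in the 3 naïve libraries and at 96.3, 157, 116 and 105 CPM at IM3h. In ME the naïve libraries held 12.6, 15.4 and 16.1 CPM and the IM3h libraries 92.6, 106 and 97.3 CPM. No library of either fraction overlapped naïve at IM3h, and the log2 fold changes were 2.86 (SE 0.28) in RiboTag and 2.82 (SE 0.14) in ME. In ME, Snhg1 then held 82.7, 89.9, 81.3 and 44.6 CPM at IM24h and 39.6, 33.6, 35.8 and 37.0 CPM at IM72h, above every naïve library at both times (log2 fold changes 2.32, SE 0.25, and 1.21, SE 0.14). RiboTag libraries scattered: 21.5, 38.2, 2.61 and 31.2 CPM at IM24h and 55.5, 16.1, 37.8 and 0 CPM at IM72h. Those 2 groups overlapped naïve, and the sign of the RiboTag change at IM24h and IM72h flipped with the scaling (0.53 and 0.77 by TMM, -0.35 and -1.06 by library total).

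Gas5, host of box C/D snoRNAs, was called higher at every time in ME. Its ME level was 86.5, 65.8 and 85.5 CPM in naïve, 158, 143 and 175 CPM at IM3h, 211, 218, 196 and 177 CPM at IM24h and 149, 172, 171 and 163 CPM at IM72h. None of these groups overlapped naïve (log2 fold changes 1.07, SE 0.13, then 1.32, SE 0.16, then 0.94, SE 0.12), and the IM72h call was lost with reference genes (0.34, SE 0.19). Its RiboTag level was 18.2, 46.1 and 47.6 CPM in naïve and 126, 130, 89.7 and 76.5 CPM at IM3h, a log2 fold change of 1.55 (SE 0.35) whose call was lost with either other scaling. It then stood at 29.9, 13.7, 5.65 and 45.3 CPM at IM24h, overlapping naïve, and at 0.934, 16.1, 10.1 and 0 CPM at IM72h, below every naïve library (log2 fold change -2.40, SE 1.62, not called). Zbtb37, on the other strand, was lower in ME at IM72h (log2 fold change -1.11, SE 0.27, adjusted p = 0.00483 by edgeR with Benjamini-Hochberg adjustment).

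Snhg12 and Snhg15 stood near 0 in the RiboTag libraries at IM72h and above naïve in ME at every time. Snhg12 held 3.05, 3.42 and 2.02 CPM in naïve RiboTag libraries and 13.0, 14.7, 12.6 and 12.1 CPM at IM3h (log2 fold change 2.25, SE 0.49, not called with reference genes or without naïve library 3). Its RiboTag libraries held 5.26, 4.42, 0 and 0 CPM at IM24h and 0, 0.434, 0 and 0 CPM at IM72h. All 4 IM72h libraries together had 1 count against 71 in naïve, a ratio of normalized level of 0.0491 (95% counting interval 0.00123 to 0.282). In ME Snhg12 stood at 6.62, 3.94 and 7.44 CPM in naïve, 23.7, 34.5 and 39.0 CPM at IM3h, 10.4, 9.32, 14.6 and 12.2 CPM at IM24h and 10.8, 13.7, 11.3 and 12 CPM at IM72h. No ME library after manipulation overlapped naïve (log2 fold changes 2.46, SE 0.25; 0.92, SE 0.31; and 0.86, SE 0.21), though the IM24h change was not called and the IM72h call was lost with reference genes (0.25). Snhg15, host of Snora9, was near the limit of counting in RiboTag: 0, 1.60 and 2.73 CPM in naïve, 8.0, 7.46, 4.24 and 3.29 CPM at IM3h, 0, 0, 0.435 and 0.190 CPM at IM24h and 0, 0.434, 0 and 0 CPM at IM72h. Its IM3h libraries stood above naïve (log2 fold change 2.03, SE 1.09, not called), and the later groups held 2 and 1 counts against 37 in naïve (ratios 0.0751, interval 0.00877 to 0.291, and 0.0941, interval 0.00232 to 0.558). In ME it moved by the largest factor of the 7: 0.602, 1.25 and 0.6 CPM in naïve, 11.4, 11.4 and 12.1 CPM at IM3h, 6.78, 3.31, 7.89 and 5.32 CPM at IM24h and 9.55, 9.10, 7.75 and 6.87 CPM at IM72h. No library overlapped naïve, and the log2 fold changes were 3.97 (SE 0.35), 2.85 (SE 0.56) and 3.33 (SE 0.33).

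**Figure D2:**
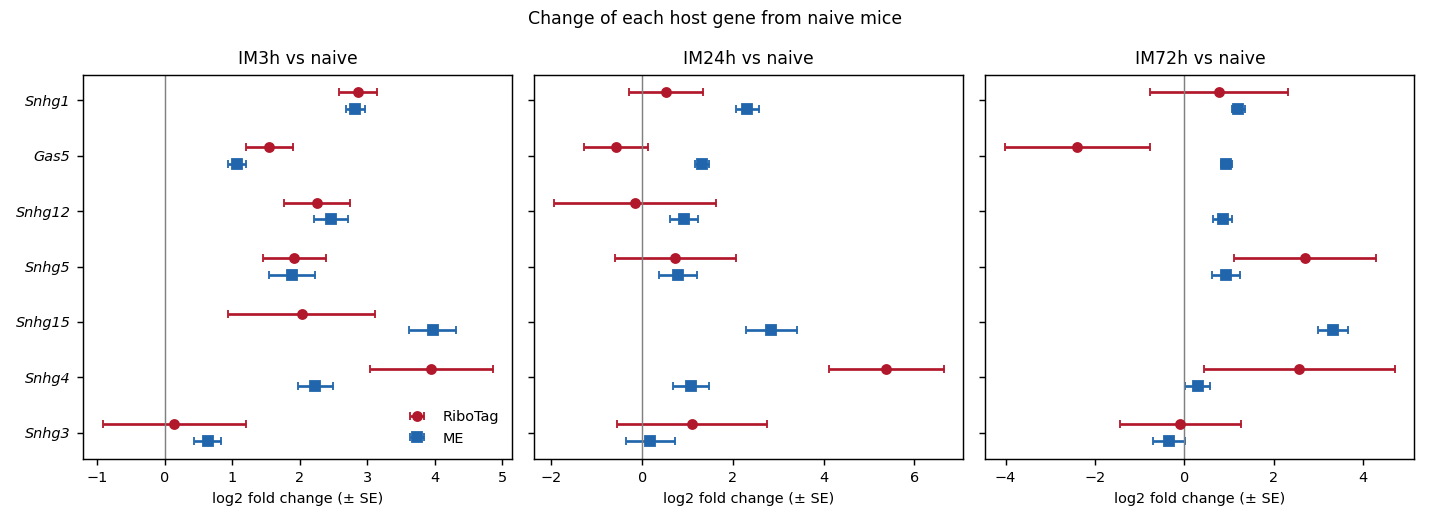
Log2 fold change from naïve (x axis, edgeR, bars the standard error) of each host gene at each time, circles RiboTag and squares ME. Genes with 3 or fewer counts in a group are not drawn. At IM3h both fractions lie above 0 for every gene, while at IM72h Gas5 is at -2.40 in RiboTag and 0.94 in ME.

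Snhg5, the U50 host, rose at IM3h with a close size in both fractions. RiboTag libraries held 2.42, 5.48 and 4.87 CPM in naïve and 11.9, 16.2, 16.4 and 17.7 CPM at IM3h (log2 fold change 1.92, SE 0.47), a call lost with reference genes (1.38) and without naïve library 1 or 3 or IM3h library 2 or 3. ME libraries held 5.53, 2.70 and 9.72 CPM in naïve and 18.1, 25.8 and 21.4 CPM at IM3h (log2 fold change 1.88, SE 0.34). In ME it was called higher at IM72h (13.2, 15.3, 12 and 10.4 CPM, log2 fold change 0.93, SE 0.31, lost with reference genes and without naïve library 1 or 2 or IM72h library 2) but not at IM24h (12.5, 13.3, 9.43 and 7.13 CPM). In RiboTag it held 8.51, 8.04, 0.435 and 9.90 CPM at IM24h and 37.8, 18.2, 47.0 and 1.21 CPM at IM72h, where 3 of 4 libraries stood above naïve and 1 below (log2 fold change 2.70, SE 1.59, not called). The transcript behind it also differed: Snhg5-222 took 41.7% of the gene's counts in naïve RiboTag libraries, 5.47% at IM3h and 100% at IM72h, while Snhg5-203, with 58.3% in naïve, had 0 counts at IM72h. In ME Snhg5-222 took no more than 10.6% of the gene's counts in any group.

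Snhg4, the host of Snora74a, on chr18:35553371-35558316 (+), was the most uneven gene. Its RiboTag level was 3.43, 1.60 and 3.56 CPM in naïve, 7.77, 20.6, 16.0 and 127 CPM at IM3h, 0.751, 99.3, 286 and 84.5 CPM at IM24h and 4.20, 65.1, 0 and 0.603 CPM at IM72h. Its ME level was 3.61, 3.74 and 6.84 CPM in naïve, 21.6, 19.9 and 23.0 CPM at IM3h, 9.51, 6.91, 15.3 and 9.06 CPM at IM24h and 5.85, 5.18, 6.10 and 8.15 CPM at IM72h. ME libraries of a group lay close to each other, while RiboTag libraries of 1 group differed by more than 10 times. The locus was matched through its RefSeq interval, and it overlaps the protein-coding Gm28285 on the same strand, so its counts are uncertain. A single transcript, Snhg4-207, whose exons were not placed here, held most of the high values at IM3h and IM24h. It had 0 counts in naïve, 1219 of 1357 counts (89.8%) in the highest IM3h library, and 225 of 247, 659 of 659 and 373 of 444 counts (91.1%, 100% and 84.1%) in 3 of the 4 IM24h libraries. In the high IM72h library it held 59 of 150 counts, and Snhg4-205 held 91.2. The ME transcript table does not list it. Without it, an alternative chosen after seeing the data, the RiboTag log2 fold change fell from 3.95 (SE 0.91) to 2.21 (SE 0.58) at IM3h, beside 2.23 (SE 0.26) in ME, and from 5.38 (SE 1.27) to 1.06 (SE 1.65) at IM24h. The IM3h call held without the transcript, but with it was lost without any 1 naïve library (3.67 to 4.15).

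**Figure D3:**
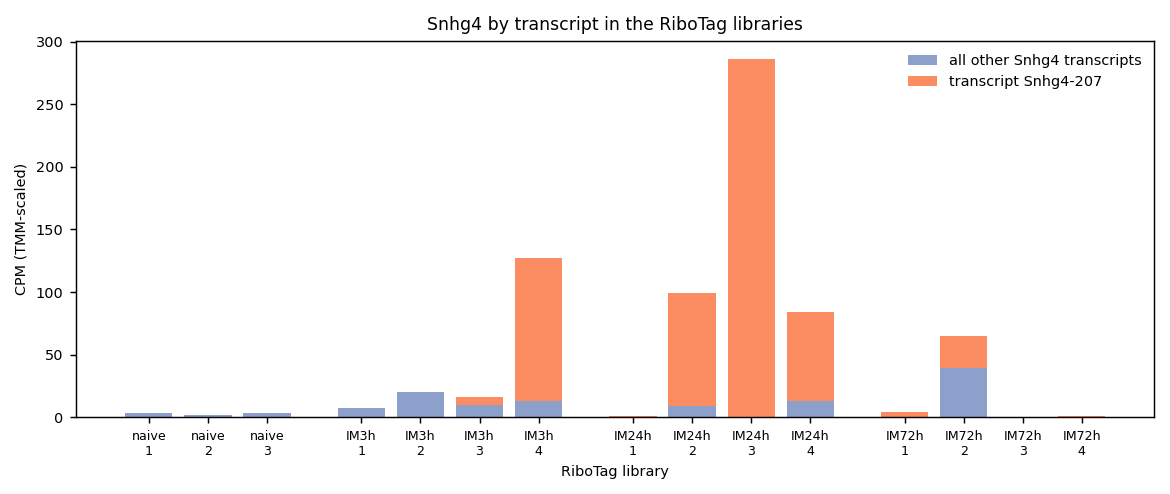
Level of Snhg4 in each RiboTag library (bars, CPM after TMM scaling), split into transcript Snhg4-207 and all other Snhg4 transcripts. In IM24h library 3 all 286 CPM came from Snhg4-207, and the other transcripts stood between 7.77 and 20.6 CPM in the 4 IM3h libraries.

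Snhg3, the U17 host, had the smallest log2 fold change of the 7 at IM3h in both fractions. In RiboTag it held 2.67, 1.25 and 2.14 CPM in naïve, 1.25, 3.97, 1.88 and 1.5 CPM at IM3h, 2.63, 0, 11.3 and 3.24 CPM at IM24h and 0, 0, 0 and 6.03 CPM at IM72h, and every group overlapped naïve. ME libraries stood at 12.3, 11.2 and 14.0 CPM in naïve and 16.2, 16.6 and 23.2 CPM at IM3h, a log2 fold change of 0.64 (SE 0.20) that was called. That call was lost with DESeq2, with either other scaling, without any 1 naïve library and without IM3h library 3 (0.46, SE 0.20). Later ME libraries held 5.08, 6.71, 14.1 and 31.4 CPM at IM24h and 6.11, 8.08, 7.90 and 20.0 CPM at IM72h. At IM24h they were spread widely, and at IM72h library 4 stood far above the others. Without library 4, the highest at each time, the log2 fold change was -0.56 (SE 0.37) at IM24h and -0.87 (SE 0.19) at IM72h, the latter called. Rcc1, which overlaps Snhg3 on the same strand, rose in ME at IM3h (log2 fold change 1.47, SE 0.21, edgeR adjusted p = 0.000528 after Benjamini-Hochberg adjustment). It was also called higher in ME at IM24h (1.12, SE 0.25) and at IM72h (1.81, SE 0.23), and at no time in RiboTag.

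For the other genes the shares of single transcripts differed between groups to varying degrees. Snhg1-208 took 80.4%, 88.5% and 82.0% of Snhg1 counts in naïve, IM3h and IM24h RiboTag libraries and 50%, 54.0%, 71.0% and 80.9% in the 4 ME groups in time order. In RiboTag IM72h it took 28.5%, and 108.6 of the Snhg1 counts were assigned to Snhg1-207, all in 1 library. Snhg12-202 took 59.3%, 67.8%, 36.7% and 84.5% of Snhg12 counts in the ME groups in the same order. Snhg15-204 held 91.4%, 90.6%, 87.3% and 94.8% of Snhg15 counts in ME. Gas5-209 took 27.7% to 44.9% of Gas5 counts in ME, and Gas5-206 took 16.1% to 27.2%. Transcript counts here are estimates from reads at the 3′ end, which separate transcripts only where their ends differ.

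The hosted snoRNAs were mostly not seen: of 28 distinct names 10 had at least 10 counts in RiboTag and 3 in ME, 11 in either fraction. Mature snoRNAs carry no poly(A) tail and the libraries were primed from poly(A), so these counts do not give mature snoRNA levels. Snora73b, the U17b snoRNA whose sequence is given above, stood apart at IM24h. In RiboTag it held 0.127, 0 and 1.07 CPM in naïve and 24.4, 29.7, 91.3 and 24.9 CPM at IM24h (fitted log2 fold change 6.69, SE 1.22). In ME it held 0, 0.415 and 0 CPM in naïve and 10.8, 6.21, 12.4 and 1.92 CPM at IM24h. From 2 counts in naïve and 331 at IM24h the ME ratio was 87.8 (95% counting interval 24.1 to 728). It passed the filter on low counts only at IM24h, where it was high, so no p-value is given. All 8 IM24h libraries stood above every naïve library of their fraction, as for 6.37% of all genes tested in RiboTag and 20.6% in ME. At the other times it held 0 to 2.35 CPM in RiboTag and 0.235 to 0.958 CPM in ME. Its host Snhg3 was not called in either fraction at IM24h (log2 fold changes 1.10, SE 1.65, and 0.18, SE 0.54). The fitted RiboTag value was 5.55 (SE 1.41) with scaling by library total and 4.93 (SE 1.57) by reference genes, and 9.03 (SE 1.45) without naïve library 3, which held 9 of the 10 naïve counts. Snora73a, from another intron of Snhg3, is 96.6% identical to it (198 of 205 positions) and is not listed in the tables, so the split of reads between the 2 is uncertain.

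**Figure D4:**
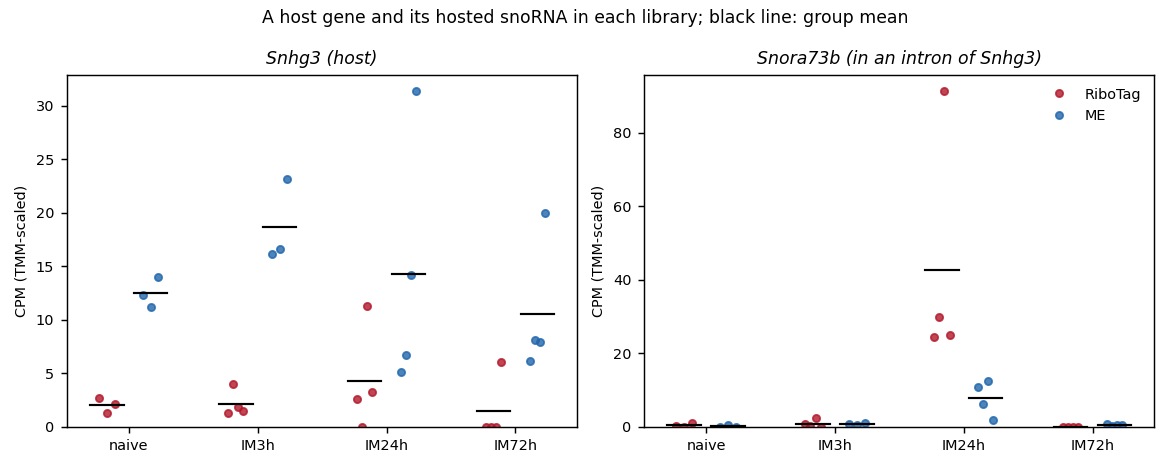
Level of Snhg3 (left) and of Snora73b from its intron (right) in every library, in CPM after TMM scaling (red RiboTag, blue ME, black line the group mean). Snora73b stood at 24.4 to 91.3 CPM in RiboTag and 1.92 to 12.4 CPM in ME at IM24h, and no higher than 2.35 CPM in any other group.

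Most other hosted snoRNAs were also seen mainly at IM24h, but Snord22 had more counts at IM3h (36 against 25) and Gm22489 was seen only at IM72h. Gm24452, from Snhg1, had 0 counts in the naïve ME libraries and 12, 18, 6 and 19 counts at IM24h, at least 9.72-fold higher against a floor of 3 counts over the group, and it too passed the filter only there. Its RiboTag counts were 15, 0 and 0 in naïve and 59, 0, 34 and 27 at IM24h, which overlapped. Snora61, from Snhg12, had 0 counts in naïve and IM3h RiboTag libraries, 5, 18, 75 and 0 at IM24h and 0, 48, 0 and 3 at IM72h, and did not pass the filter on low counts. Gm23212, from Gas5, had 9, 40, 0 and 2 counts and Gm25894, from Snhg1, 34, 0, 1 and 7 counts in the RiboTag IM24h libraries, with 0 in naïve for both. Snord22, from Snhg1, was counted at IM3h (0, 16, 3 and 17) and IM24h (8, 15, 2 and 0) and not in naïve. Snora44 was counted in ME at IM24h (4, 0, 7 and 7). Snora74a, Mir1949, Snord99 and Gm22489 reached 10 to 18 counts in a single RiboTag library each, at IM72h for Gm22489 and at IM24h for the others. Outside the members, Gm17300, on the strand opposite Snhg3, had 0 counts in naïve RiboTag libraries. It had 265 at IM3h, at least 52.4-fold higher, 182 at IM24h, at least 84.2-fold higher, and 11 at IM72h. In RiboTag it passed the filter only at IM3h.

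The other genes of the pathway were taken from lists by their role. Of 15 other noncoding hosts, 2 rose and 1 fell of 13 tested at IM3h in RiboTag, and 7 rose and 1 fell of 13 in ME (median log2 fold changes 0.69 and 0.89). Over all genes tested at IM3h, 8.86% were called higher and 4.44% lower in RiboTag, and 19.3% and 13.4% in ME. Snhg16 rose in both, from 1.37 to 2.54 CPM in naïve to 5.16 to 11.6 CPM in RiboTag (log2 fold change 2.20, SE 0.66, edgeR adjusted p = 0.0469 after Benjamini-Hochberg adjustment) and by 2.25 (SE 0.41, adjusted p = 0.00223 in the same kind of edgeR fit) in ME. Zfas1, antisense to the start of Znfx1, rose by 1.46 (SE 0.40) in RiboTag and 1.74 (SE 0.15) in ME, and Snhg17 by 2.49 (SE 0.30) in ME. The RiboTag calls of Snhg16 and Zfas1 were lost with either other scaling (2.03 and 1.92 for Snhg16, 1.28 and 1.12 for Zfas1), without any 1 naïve library, and without IM3h library 1 or 2, and that of Snhg16 also with no filter and without IM3h library 3. Snhg18 fell by 1.69 (SE 0.38) on the log2 scale in RiboTag at IM3h (not called with reference genes or without naïve library 2) and had 1 count at IM72h against 575 in naïve, a ratio of 0.00606 (95% counting interval 0.000153 to 0.0339). In ME 5 rose and 1 fell of 14 tested at IM24h, and 7 rose and 3 fell at IM72h, where Zfas1 (2.02, SE 0.15), Snhg6 (1.94, SE 0.26) and Snhg16 (1.86, SE 0.34) had the largest log2 fold changes. Of all genes tested in ME, 15.6% and 29.3% were called higher at these times, and 13.4% and 28.3% lower. In RiboTag none of 12 was called at IM24h by edgeR (2 had an unadjusted p under 0.05), and at IM72h 0 rose and 2 fell of 11, Snhg18 and Snhg9 (82 counts in naïve and 0 at IM72h, at least 7.85-fold lower), where 15.1% of all genes were called lower. Snhg18 lost its call with no filter and without any 1 naïve library, and Snhg9 with DESeq2 and no filter.

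Among 20 protein-coding hosts, many of them nucleolar or ribosomal proteins, 10 rose and 1 fell at IM3h in RiboTag and 16 rose and 0 fell in ME. The shares of all genes called higher and lower at IM3h were 8.86% and 4.44% in RiboTag and 19.3% and 13.4% in ME. Over these and the noncoding hosts, the RiboTag calls went from 14 to 4 with reference genes. The ME calls went from 24 to between 14 and 19 when single libraries were left out. Ncl, which encodes the nucleolar protein nucleolin, went from 327 to 398 CPM in naïve RiboTag libraries to 1299 to 2612 CPM (log2 fold change 2.38, SE 0.31). Wdr43, a factor of the small ribosomal subunit processome, rose by 2.34 (SE 0.25) in RiboTag and 2.10 (SE 0.13) in ME. In ME 6 rose and 1 fell at IM24h and 11 rose and 2 fell at IM72h, where 15.6% and 29.3% of all genes were called higher and 13.4% and 28.3% lower. Rack1 and Rps12, parts of the small ribosomal subunit, rose at both times (Rack1 1.33, SE 0.18, and 1.53, SE 0.14; Rps12 1.10, SE 0.18, not called with reference genes, and 1.43, SE 0.16), whereas Ncl fell by 1.51 (SE 0.12) on the log2 scale at IM72h. In RiboTag none of 20 was called at IM24h by edgeR (12 had an unadjusted p under 0.05, and DESeq2 called 6 over these and the noncoding hosts), and at IM72h Ncl rose (1.87, SE 0.37). The rise of Ncl at IM72h was 0.03 (SE 0.42) with scaling by library total. Among the 89 genes other than the members that host a named snoRNA in the annotation, 24 rose and 3 fell of 83 tested at IM3h in RiboTag, and 50 rose and 3 fell of 82 in ME.

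Of 18 genes for proteins that bind and assemble snoRNAs, 8 rose and 0 fell at IM3h in RiboTag (median log2 fold change 1.32, 3 called with reference genes), and 11 rose and 0 fell of 17 tested in ME (0.71). Beside them, 8.86% of all genes were called higher and 4.44% lower in RiboTag, and 19.3% and 13.4% in ME. Nop58 and Nop56, the paired core proteins of box C/D particles, rose by 2.11 (SE 0.25) and 2.18 (SE 0.42) in RiboTag and by 2.61 (SE 0.15) and 2.01 (SE 0.19) in ME, and both are themselves host genes. Nolc1, a chaperone of snoRNA particles, rose by 2.60 (SE 0.32) in RiboTag and 1.85 (SE 0.12) in ME, with an edgeR adjusted p of 0.000376 and 2.76e-06 after Benjamini-Hochberg adjustment. In ME 6 of 18 rose and 0 fell at IM24h, where 15.6% of all genes were called higher and 13.4% lower. They were led by Nhp2 of the H/ACA core (2.59, SE 0.29), the assembly ATPase Ruvbl1 (1.86, SE 0.23) and the H/ACA assembly factor Shq1 (1.63, SE 0.52, not called with reference genes or without any 1 naïve library). At IM72h 5 rose and 2 fell in ME, where 29.3% of all genes were called higher and 28.3% lower, with Nhp2 at 1.42 (SE 0.14), Nop56 at 0.96 (SE 0.15) and Nolc1 at -1.15 (SE 0.13). That split was 14 higher and 1 lower with scaling by library total and 1 higher and 7 lower with reference genes, where Nop56 was at 0.37 and not called. None of 18 was called in RiboTag at IM24h by edgeR (2 had an unadjusted p under 0.05, and DESeq2 called 0), and at IM72h 0 rose and 2 fell of 16: Ruvbl2 (103 counts in naïve and 0 at IM72h, at least 9.86-fold lower) and Ruvbl1 (267 and 1 counts, a ratio of 0.013, 95% counting interval 0.000329 to 0.0733), beside 15.1% of all genes called lower. The call of Ruvbl2 was lost with DESeq2 and no filter, and that of Ruvbl1 with no filter and without any 1 naïve library.

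Of 18 nonsense-mediated decay factors, 5 rose and 0 fell in RiboTag at IM3h (median log2 fold change 0.38), and 9 rose and 1 fell in ME (0.48). Among all genes tested, 8.86% were called higher and 4.44% lower in RiboTag at IM3h, and 19.3% and 13.4% in ME. The termination factors Etf1 and Gspt1 rose in RiboTag by 2.08 (SE 0.29) and 2.06 (SE 0.28), and the kinase Smg1 by 1.54 (SE 0.27), none of them called with reference genes. In ME at IM3h Etf1 rose by 1.60 (SE 0.11), Smg8 by 1.17 (SE 0.32, not called with either other scaling) and Smg1 by 1.05 (SE 0.18). Later in ME 3 rose and 3 fell at IM24h and 5 rose and 5 fell at IM72h, shares near those of all genes (15.6% higher and 13.4% lower, then 29.3% and 28.3%). With other scalings the split was 11 and 0, then 12 and 1, by library total, and 0 and 3, then 1 and 11, by reference genes. By TMM Smg9 rose (1.33, SE 0.29, not called with reference genes, and 1.49, SE 0.18), Upf2 fell by 0.86 (SE 0.14) on the log2 scale at IM24h, Nbas fell by 0.86 (SE 0.24) and 1.0 (SE 0.17) at IM24h and IM72h, and Gspt1 fell by 1.72 (SE 0.12) at IM72h. With scaling by library total Upf2 was at -0.21 and Nbas at -0.23 and -0.42, none of them called, and Nbas at IM24h was also not called with reference genes or without naïve library 1 or 3 or IM24h library 1. In RiboTag none was called at IM24h by edgeR (2 had an unadjusted p under 0.05, and DESeq2 called 1), and at IM72h 0 rose and 2 fell of 18, Nbas (348 counts in naïve and 1 at IM72h, ratio 0.01, 95% counting interval 0.000253 to 0.0561) and Dhx34 (102 and 1 counts, ratio 0.0342, interval 0.000856 to 0.195), again beside 15.1% of all genes. The call of Nbas was lost with no filter and without any 1 naïve library, and that of Dhx34 with DESeq2 and no filter.

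**Figure D5:**
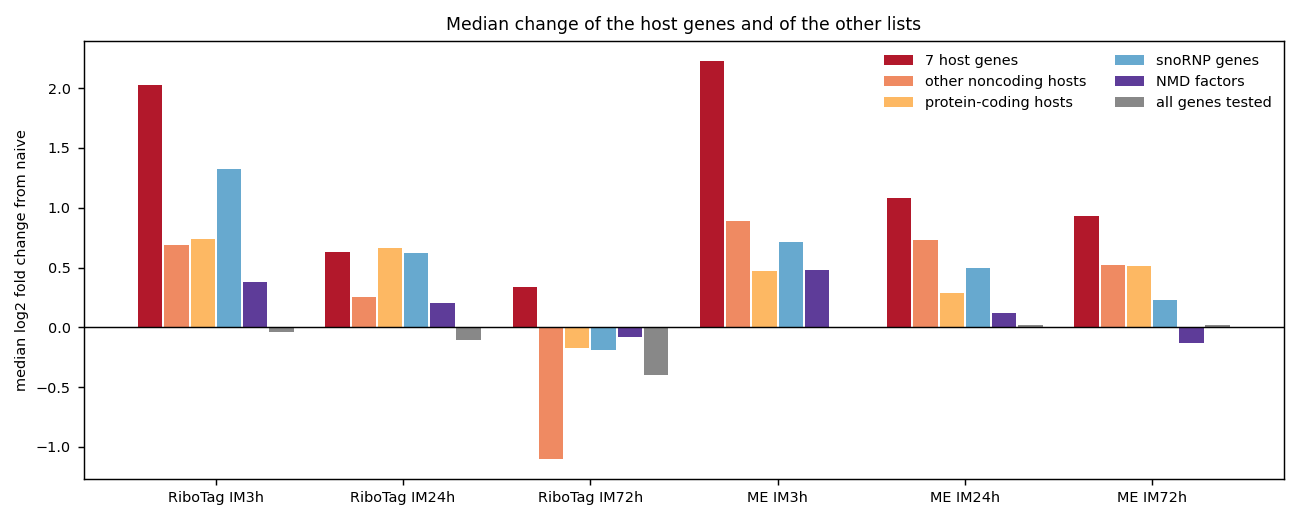
Median log2 fold change from naïve (y axis) of the 7 host genes, of the other host, snoRNA protein and decay lists and of all genes tested, in each of the 6 comparisons. At IM3h the host genes stood at 2.03 in RiboTag and 2.23 in ME, and all genes tested at -0.04 and 0.00.

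The genes whose level followed the mean of the 7 host genes most closely were ranked by Pearson's correlation of log2 CPM over libraries, a description, since libraries share their group. Over the 15 RiboTag libraries and 18247 genes these were Mt1 (0.941), a metallothionein, Eif5 (0.936), a translation initiation factor, Gnl3 (0.928), a nucleolar GTPase, Ccn1 (0.916) and Azin1 (0.914), an antizyme inhibitor. Over the 14 ME libraries and 17916 genes they were Rnf19b (0.989), Socs3 (0.980), an inhibitor of cytokine signaling, Bcl3 (0.978), Adamts4 (0.966) and Gadd45g (0.963). Of the listed hosts Snhg17 came closest in ME (0.957, rank 10) and Nop56 in RiboTag (0.820, rank 186).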

How the data were processed

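Libraries were made by the authors with a QuantSeq 3′ kit, and single-end reads were trimmed (cutadapt), aligned with STAR to mm10 and quantified on Ensembl transcripts in Partek Flow. The 5 deposited tables hold estimated counts, not scaled for library size. They list only features with at least 10 counts in total, so a feature under that total is counted as 0 here. The 4 tables of the authors' own comparisons hold p-values, FDR, ratios, fold changes and group means and were not used. Each line of the count tables names its group but matches no sample label, so groups were mapped as a whole and libraries are numbered in table order. The labels list 4 naïve RiboTag samples and the tables hold 3, and 0 columns of other samples were found.

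Transcript counts were summed by gene symbol in RiboTag, gene counts were taken as deposited in ME, and both were rounded. edgeR 4.0.16, run in R 4.3.3, set each of the 3 time points against naïve per fraction, which made 6 comparisons. TMM factors and filterByExpr preceded two-sided quasi-likelihood F tests. A gene was called at a Benjamini-Hochberg adjusted p under 0.05 over all genes tested. SE is the log2 fold change over the root of F. CPM uses 1 TMM scaling per fraction. A group with 3 or fewer counts is given as a ratio with a 95% counting interval, or as a bound against 3 counts, which cover counting error only. The code was tested on simulated counts. Named are the 7 genes, hosted snoRNAs with at least 10 counts in a fraction, the 3 largest called changes per list and comparison, and the 5 closest genes by correlation. The study describes replicates as mice, and the labels do not tie single libraries to mice. Priming was from poly(A). The members and lists were chosen with earlier results of these data known. Alternatives were DESeq2 1.42.0, no filter on low counts, scaling by library total or by 3 reference genes (Actb, Hsp90ab1, Rplp1), ribosomal RNA genes left out, summed ME transcript counts and each library left out. A result for 1 listed gene is not reported here.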

Additional observations from a re-analysis of the deposited data

Results flagged for a closer look

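Of 39 groups of 4 libraries examined for a library far from the rest, 7 held such a library. The nominal rate of the cutoff is about 1 in 20 for normally distributed values, which was not checked for these levels. It does not hold for the 3 of these groups in which the other libraries were at 0. In RiboTag at IM72h these were library 4 for Snhg3 (6.03 CPM, the others at 0), and library 2 for Snhg4 (65.1 CPM), Snhg12 and Snhg15 (0.434 CPM, 1 count each). Library 4 of RiboTag IM3h stood apart for Snhg4 (127 CPM), library 3 of RiboTag IM24h for Snora73b (91.3 CPM) and library 4 of ME IM72h for Snhg3 (20.0 CPM).

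At IM72h every ME library stood above naïve and every RiboTag library below it for Snhg12 (RiboTag log2 fold change -4.16, a fitted value from 1 count) and Gas5 (-2.40). Over all genes tested at IM72h, 33.7% stood wholly above naïve in ME and 28.4% wholly below it in RiboTag. The difference between the fractions was not tested. Sox10 and Gfap also stood below naïve in the RiboTag IM72h libraries (0 to 11.7 CPM for Sox10), and their part in this was not tested.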

How the results depend on the processing

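No paired analysis was possible because the lines of the count tables carry a group but no replicate number. Over the 7 genes, 477 values under alternatives were computed for 40 results. Of these 430 kept the call status, with the same direction or, for uncalled values, a sign change no larger than the SE. They include results that were never called and stayed so. Another 27 lost the call, 10 gained it, 10 uncalled values changed sign by more than the SE and 0 called values changed sign. For the 53 results of listed genes 545 of 623 values kept direction and call, and 78 lost the call. The cause of these shifts was not tested. Over all genes, TMM gave RiboTag medians (log2 fold change) of -0.04 for IM3h, -0.11 for IM24h, -0.40 for IM72h. Library total put these at -0.24, -0.96, -2.13, reference genes at -0.45, -1.51, -2.07. For ME the TMM medians were 0.00, 0.02, 0.02, those by library total -0.26, 0.66, 0.62, those by reference genes -0.41, -0.35, -0.58. The split of all genes called higher and lower went from 1422 and 712 to 976 and 931 or 242 and 306 in RiboTag at IM3h, from 142 and 2049 to 40 and 2828 or 48 and 3010 at IM72h, and from 56 and 20 to 1 and 0 under both at IM24h. In ME it went from 2962 and 2058 to 1741 and 3391 or 1578 and 5364 at IM3h, from 2553 and 2187 to 6281 and 720 or 756 and 1861 at IM24h, and from 4855 and 4689 to 8509 and 1964 or 2013 and 7981 at IM72h. 

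In the counts that follow, the order is the 7 genes, other hosts, snoRNA proteins, decay factors and all genes. In RiboTag at IM3h (5, 14, 8, 5 and 2134 called) reference genes gave 2, 4, 3, 0 and 548, and library total gave 3 decay factors. At IM24h (0, 0, 0, 0 and 76) DESeq2 gave 1 of the 7 genes, 6 hosts, 1 decay factor and 907 genes, no filter gave 1, 1 host and 238 genes, each other scaling gave 1 gene in all, and leaving out the 2 libraries with most AY036118 gave 153, an alternative chosen after seeing the data. At IM72h (1, 4, 2, 2 and 2191) DESeq2 gave 0 of the 7 genes, 2 hosts and 1 snoRNA protein, no filter gave 0, 0, 0, 0 and 34, leaving out ribosomal RNA genes gave 0 of the 7 genes, 1 snoRNA protein, 1 decay factor and 1359 genes, reference genes gave 7 hosts and 5 decay factors, and library total 5 decay factors. In ME at IM3h (7, 24, 11, 10 and 5020) library total gave 13 hosts and 6 decay factors and reference genes 6 decay factors. At IM24h (3, 13, 6, 6 and 4740) library total gave 6, 24, 14 and 11, and reference genes gave 4 hosts, 2 snoRNA proteins, 3 decay factors and 2617 genes. At IM72h (5, 23, 7, 10 and 9544) reference genes gave 2 of the 7 genes and library total 15 snoRNA proteins.

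When single libraries were omitted, the counts in the same order ran in RiboTag from 2 to 5 (2 without naïve library 3), 6 to 15, 5 to 8, 3 to 8 and 1100 to 2849 at IM3h, from 0 to 1 (1 without IM24h library 1), 0 to 7, 0 to 2, 0 to 1 and 0 to 483 at IM24h, and from 1 to 2, 2 to 9, 1 to 4, 1 to 3 and 1288 to 3831 at IM72h. In ME they ran from 6 to 7, 14 to 19, 10 to 11, 5 to 9 and 3750 to 4510 at IM3h, from 3 to 5, 7 to 16, 3 to 10, 2 to 7 and 2790 to 5972 at IM24h, and from 4 to 6, 21 to 25, 6 to 9, 10 to 11 and 8456 to 9634 at IM72h. In RiboTag at IM3h Snhg4 lost its call without any naïve library (3.67 to 4.15), Snhg5 with reference genes (1.38) or without naïve library 1 or 3 or IM3h library 2 or 3, and Snhg12 with reference genes (1.86) or without naïve library 3 (2.07). Snhg4 in RiboTag was called at IM24h with DESeq2 (5.38), with no filter (5.31) and without IM24h library 1 (5.84), and stood at -0.76 at IM72h without library 2. In ME at IM72h reference genes ended the calls of Snhg5 (0.31), Snhg12 (0.25) and Gas5 (0.34).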
